A study of Mus musculus with 24 samples.

Results

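S100 genes encode small calcium-binding proteins built on paired EF-hand loops. The 8 members described here, S100a1, S100a4, S100a6, S100a8, S100a9, S100a10, S100a11 and S100a13, were taken by name and are 8 of the 17301 genes in the deposited table. All 8 passed the filter on low values, a mean RPKM (reads scaled for the length of the gene and the size of the library) of at least 1 in at least 1 group. RNA was sequenced from sorted myeloid cells of mouse colon in 8 groups of 3 libraries, 24 in all. Lamina propria (LP, the connective tissue under the gut epithelium) came from C57BL/6J mice, which the labels give as C57/BL. Tumours came from Apc Min/+ mice (APC/Min on the labels), which carry a germline Apc mutation, form intestinal adenomas and had received dextran sodium sulphate (DSS) for 7 days. Each library held cells from a pool of 13 to 15 mice, and the methods give an age of 3 to 4 months. The study describes earlier DSS for the C57BL/6J mice too, at another concentration, and the labels call their LP healthy. Cell isolation differed too: the methods give a step that strips the epithelium for LP only, DNase for tumours only, and other digestion times and density gradients. Genotype, tumour tissue, the concentration of DSS and the isolation of cells therefore differ together between the tissues and cannot be told apart. From each tissue F4/80hi macrophages with high or low surface MHC class II (MHCIIhi and MHCIIlow), monocytes and neutrophils were sorted, and Roman numerals below are the numbers of the pools.

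Inside cells S100 proteins bind target proteins, mostly when calcium rises, and several are also released and act on receptors of other cells. S100a8 and S100a9 pair as calprotectin, an abundant protein of the neutrophil cytosol that binds metal ions and is used in stool as a marker of intestinal inflammation. S100a10 binds its partners without calcium and forms a complex with annexin A2 at membranes, while S100a4, S100a6 and S100a11 are known as ligands of cytoskeletal proteins and annexins.

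All 8 genes lie on chromosome 3 (GENCODE M21 on GRCm38). S100a1 (90511034 to 90514392, minus strand), S100a13 (90514435 to 90524581, plus), S100a4 (90603771 to 90606045, plus), S100a6 (90612882 to 90624181, plus), S100a8 (90668978 to 90670035, plus) and S100a9 (90692632 to 90695721, minus) stand within 185 kb. S100a11 (93520488 to 93526287, plus) and S100a10 (93555080 to 93564643, plus) stand within 44.2 kb of each other, 2.82 Mb further on. S100a8 and S100a9 are 22.6 kb apart on opposite strands, and S100a1 and S100a13 are separated by 42 bases. For S100a4, 51.7% of the exonic bases also belong to Gm42674 on the same strand, so that its reads may have been split. A read covered 51 bases, and of all stretches this long in S100a11 transcripts 41.0% also occur in Gm12854 and 23.2% in Gm7665, so S100a11 values are less certain.

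The sequences before the starts of S100a8 and S100a9 are shown because these members were the highest in neutrophils, and those of S100a4 and S100a6 because both were lower in tumour macrophages. Across the 24 libraries S100a4 and S100a6 were little alike (Pearson r of their log2 levels 0.278, given as a description), and S100a5 lies between them in the genome. The sequences are from RefSeq (GRCm38.p6), 5′ to 3′ on the gene's strand. Those of S100a8, S100a9 and S100a6 end where the GENCODE gene begins, and that of S100a4 ends before its RefSeq start, which lies 1 base ahead of the GENCODE start. RefSeq promoters were matched for 7 of the 8 members (not S100a10). Capitals mark matches to 3 motifs searched on both strands of the 250 bases before each RefSeq start: the TATA box TATAAA, the core TTNNGNAA bound by C/EBP factors, and the core GAGGAAG bound by PU.1.
S100a8, chr3:90668821-90668977, plus strand: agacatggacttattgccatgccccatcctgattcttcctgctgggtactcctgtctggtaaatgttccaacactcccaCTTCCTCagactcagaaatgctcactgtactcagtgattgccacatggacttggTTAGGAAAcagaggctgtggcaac
S100a9, chr3:90695722-90695971, minus strand: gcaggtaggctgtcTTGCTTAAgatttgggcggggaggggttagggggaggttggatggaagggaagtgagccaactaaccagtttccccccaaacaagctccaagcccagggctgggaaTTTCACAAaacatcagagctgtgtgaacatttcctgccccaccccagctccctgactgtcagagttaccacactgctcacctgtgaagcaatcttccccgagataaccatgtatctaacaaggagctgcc
S100a4, chr3:90603520-90603769, plus strand: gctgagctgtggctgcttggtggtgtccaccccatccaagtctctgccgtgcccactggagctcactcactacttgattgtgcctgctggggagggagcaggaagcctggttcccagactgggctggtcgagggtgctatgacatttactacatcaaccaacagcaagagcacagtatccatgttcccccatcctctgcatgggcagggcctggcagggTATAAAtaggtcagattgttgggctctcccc
S100a6, chr3:90612644-90612881, plus strand: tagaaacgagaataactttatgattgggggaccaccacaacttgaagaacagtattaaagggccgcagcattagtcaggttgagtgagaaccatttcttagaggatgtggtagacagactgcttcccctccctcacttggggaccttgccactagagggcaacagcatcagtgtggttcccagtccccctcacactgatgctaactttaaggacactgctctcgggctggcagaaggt

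S100a8 held a C/EBP core 117 to 110 bases before its start, a PU.1 core on the other strand 171 to 165 bases before it and, past the end of the stretch shown, a TATA box 30 to 25 bases before it. S100a9 held 2 C/EBP cores on the other strand, 236 to 229 and 130 to 123 bases before its start. S100a4 held a TATA box 31 to 26 bases before its start. No match stood in the windows of S100a6, S100a1, S100a11 or S100a13. Of 32851 promoters of the same length, 12.4% held the TATA box, 36.8% the C/EBP core and 10.6% the PU.1 core, so that single matches are common, and the motifs did not overlap here.

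The libraries held 12.8 to 41.7 M reads on genes. The labels were checked against marker lists: in LP 9 of 10 macrophage markers were higher in macrophages than in monocytes and 9 of 10 neutrophil markers were higher in neutrophils than in monocytes, and in tumours these counts were 8 and 10. Over all genes tested, 29.5% and 54.5% were called in either direction in these comparisons in LP, and 38.3% and 58.1% in tumours. Summed levels of other cells' markers moved with the tissue. Fibroblast markers summed to 6.43 to 51.7 RPKM in LP libraries and at most 1.57 in tumour libraries, and lymphocyte markers to 8.28 to 1277 in LP and 0.0495 to 69.9 in tumours. Epithelial markers reached 316 RPKM in tumour monocytes and 310.0 in tumour neutrophils against 213 and 62.2 in LP, and dendritic cell and eosinophil markers reached at most 147 and 42.2 RPKM in any library. The library size behind each deposited value was 0.466 to 0.682 of the library's summed reads in neutrophils and 0.981 to 1.51 of them elsewhere. With summed reads as sizes the median log2 difference of all genes between neutrophils and monocytes moved from -0.24 to -1.05 in LP and from -0.36 to -1.45 in tumours, and that between tumour and LP neutrophils from -0.12 to -0.57. Differences of neutrophils below are to be read relative to these medians.

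S100a8 and S100a9 were almost entirely neutrophil transcripts. S100a8 stood at 5995, 6570 and 4493 RPKM in LP neutrophils III, IV and V, and at 12096, 13505 and 8979 RPKM in tumour neutrophils I, II and V. S100a9 stood at 4020, 3906 and 3350 RPKM in LP neutrophils and at 8696, 9479 and 6000 RPKM in tumour neutrophils. In deposited RPKM every tumour neutrophil library lay above every LP neutrophil library for both genes. As a share of reads on genes the tissues overlapped for S100a8. Tumour neutrophils V had 27010 of 15.9 M reads, a lower share than the 34616 of 19.7 M in LP neutrophils IV. Together the pair took 0.274% ± 0.0442 (SD, n = 3) of all reads on genes in LP neutrophils and 0.411% ± 0.0803 (SD, n = 3) in tumour neutrophils, and 94.5% to 97.4% of the reads of the 8 members in neutrophil libraries. In monocytes, the precursors that circulate in blood and enter the gut wall, S100a8 stood at 12.6, 22.7 and 8.58 RPKM in LP (III, IV, V) and at 60.2, 30.9 and 24.5 RPKM in tumours (I, II, V). S100a9 stood at 9.002, 12.6 and 9.87 RPKM in LP monocytes and at 16.6, 8.49 and 6.23 RPKM in tumour monocytes. Thus the 3 tumour monocyte libraries lay above the 3 LP libraries for S100a8 and overlapped them for S100a9. 

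Between neutrophils and monocytes S100a8 differed 417-fold in LP (log2 8.70, SE 0.83, limma adjusted p = 3.69e-08) and 318-fold in tumours (log2 8.31, SE 0.83, limma adjusted p = 5.63e-08). The difference of S100a9 was 361-fold in LP and 826-fold in tumours (log2 8.50 and 9.69, limma adjusted p = 3.89e-07 and 5.34e-08). From tumour to LP neutrophils the differences were small beside these and did not pass the test: 2.02-fold for S100a8 (log2 1.02, 95% confidence interval -0.72 to 2.75, limma adjusted p = 0.379) and 2.11-fold for S100a9 (log2 1.08, -0.94 to 3.09, limma adjusted p = 0.426). The standard errors, 0.83 and 0.97, came from all 8 groups, and in macrophages, where reads were few, the SD reached 2.76 for S100a8 and 2.86 for S100a9, against at most 0.35 in neutrophils. With only the 6 neutrophil libraries in the fit, S100a9 passed (limma adjusted p = 0.0344) and S100a8 did not (0.0571), with log2(RPKM + 1) S100a9 passed too (0.0277), with voom on the recovered reads both did (6.08e-05 and 6.01e-04), and under quantile normalization S100a8 stood at -0.12. With summed reads as library sizes the log2 differences were 0.55 for S100a8 (limma adjusted p = 0.645) and 0.61 for S100a9 (0.664). In a bulk sample of sorted cells, a change in the number of cells of a type and a change of RNA per cell cannot be told apart.

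**Figure D1:**
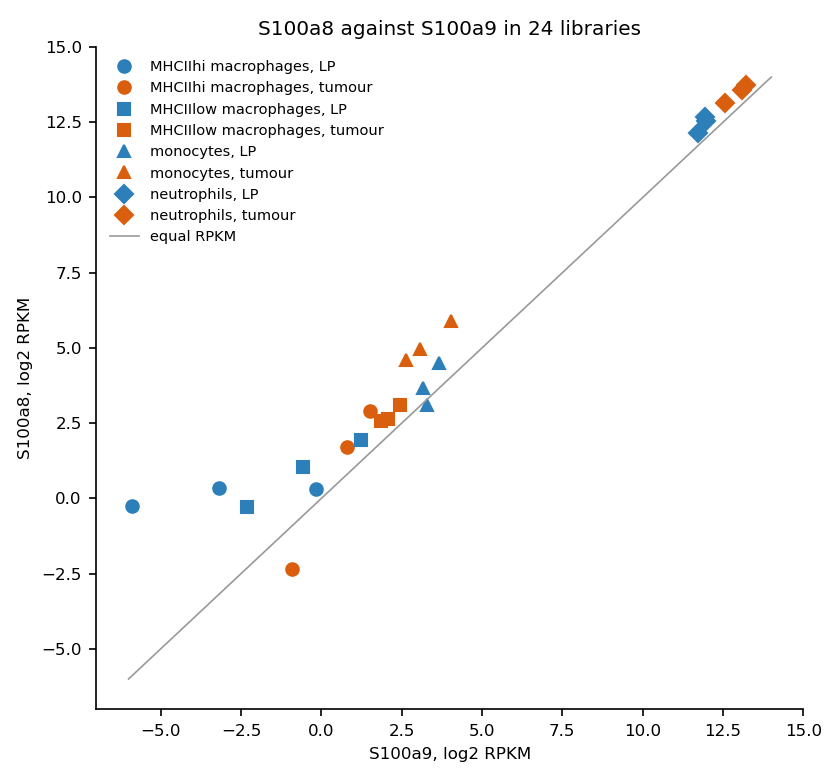
S100a8 (y axis, log2 RPKM) against S100a9 (x axis, log2 RPKM), 1 point per library, with blue for LP, orange for tumour, the marker shape for the population and a grey line at equal RPKM. The 6 neutrophil libraries stand apart at the upper right (S100a8 4493 to 13505 RPKM), and the 3 tumour monocyte libraries lie further above the line than the neutrophils.

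The ratio of S100a8 to S100a9 RPKM was higher in tumour monocytes than in any neutrophil library, a comparison of ranges that was not tested. In neutrophils the ratio was 1.34 to 1.68 for LP and 1.39 to 1.497 for tumours. In tumour monocytes it was 3.63 to 3.92, above every library of LP monocytes (0.870 to 1.80), neutrophils and tumour macrophages. LP monocytes, tumour MHCIIlow (1.49 to 1.64) and tumour MHCIIhi macrophages (0.365 to 2.59) overlapped the neutrophils. LP macrophages had few reads of S100a9, and in the 5 libraries with any the ratio scattered from 1.39 to 11.5, on both sides of the tumour monocytes.

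In macrophages both calprotectin genes were low. S100a9 had 2, 22 and 0 reads in LP MHCIIhi macrophages III, IV and V (0.110, 0.899 and 0.0170 RPKM) and 41, 12 and 26 reads in tumour MHCIIhi macrophages I, V and VII (2.88, 0.536 and 1.73 RPKM). The groups overlapped at 1 library each. In MHCIIlow macrophages S100a9 stood at 0.202, 2.33 and 0.667 RPKM in LP (II, III, IV) and at 4.20, 3.61 and 5.49 RPKM in tumours (I, V, VII), without overlap. S100a9 was higher in tumour than in LP MHCIIhi macrophages (log2 3.55, SE 0.97, limma adjusted p = 0.0126), a value that rests on libraries with few reads. Without LP library V it was 2.14 and did not pass (limma adjusted p = 0.0982), nor without tumour library I (3.02, 0.0629), and with log2(RPKM + 1) it was 0.98 (0.0541). It did not pass either with only the libraries compared in the fit (limma adjusted p = 0.167) or with voom (0.0761). In MHCIIlow macrophages the difference was 2.68 (SE 0.97) and lay just past the threshold (limma adjusted p = 0.05001), and with the pool number as a block it passed (2.73, limma adjusted p = 0.0447). It also passed with log2(RPKM + 1) (1.52, 0.00304), log2(RPKM + 0.1), a filter at a mean RPKM of 5, quantile normalization, voom, summed reads as library sizes, and without LP library III (limma adjusted p up to 0.0495). It did not pass with no filter, with libraries centred on their median or with only the libraries compared. Nor did it pass with any other single library left out, with log2 differences down to 1.81 and limma adjusted p up to 0.249. S100a8 showed 0.822, 3.81 and 2.04 RPKM in LP MHCIIlow macrophages and 6.26, 5.92 and 8.68 RPKM in tumour ones, without overlap (log2 1.88, SE 0.83, limma adjusted p = 0.114), and passed with log2(RPKM + 1) (1.40, limma adjusted p = 0.0360). S100a8 in MHCIIhi macrophages stood at 1.26, 1.25 and 0.836 RPKM in LP and 7.47, 0.196 and 3.27 RPKM in tumours, where library V had 3 reads and the other 2 lay above LP (log2 0.62, limma adjusted p = 0.683). Without tumour library V the difference was 2.17 (limma adjusted p = 0.00618), and without tumour library I it was -0.46 (0.785), so its direction depends on single libraries.

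The summed neutrophil markers were higher in tumour than in LP macrophages, but within tumour MHCIIhi macrophages they did not follow S100a8 by library. Their sum over 10 genes was 53.6 to 60.0 RPKM in LP MHCIIhi, 30.2 to 84.5 in LP MHCIIlow, 149 to 225 in tumour MHCIIhi and 250 to 682 in tumour MHCIIlow macrophages. Of the 10 markers 1 was higher in tumour MHCIIhi macrophages, near the share of all genes tested (8.01% higher). In tumour MHCIIlow macrophages 4 of 10 were higher, beside 23.3% of all genes called in either direction, a share that includes 11.8% lower. Most of the tumour sum was Mmp9, at 101 to 187 RPKM in MHCIIhi and 205 to 645 RPKM in MHCIIlow libraries. In LP Mmp9 stood at 15.9 to 18.3 RPKM in MHCIIhi and 7.60 to 54.1 RPKM in MHCIIlow libraries. In tumour MHCIIhi libraries I, V and VII the markers summed to 177, 225 and 149 RPKM, beside S100a8 at 7.47, 0.196 and 3.27 RPKM. Ly6g, which defines neutrophils, had 0 reads in all LP macrophage and tumour MHCIIhi libraries and 40, 0 and 6 reads in tumour MHCIIlow libraries I, V and VII. The part of neutrophil RNA in the macrophage values was not tested.

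S100a10, the partner of annexin A2, was lower in tumour macrophages and level in monocytes. In MHCIIhi macrophages it stood at 27.4, 33.5 and 35.9 RPKM in LP (III, IV, V) and at 3.65, 2.56 and 3.76 RPKM in tumours (I, V, VII). In MHCIIlow macrophages it stood at 117, 87.6 and 101 RPKM in LP (II, III, IV) and at 13.4, 11.1 and 11.4 RPKM in tumours. All LP libraries of a subset lay above all tumour libraries of it, with 121 reads or more in each. S100a10 was 9.80-fold lower in tumour than in LP MHCIIhi macrophages (log2 -3.29, SE 0.38, limma adjusted p = 3.65e-06) and 8.46-fold lower in MHCIIlow macrophages (log2 -3.08, SE 0.38, limma adjusted p = 5.77e-06). In monocytes S100a10 stood at 44.9, 62.8 and 50.9 RPKM in LP and at 65.6, 53.1 and 41.5 RPKM in tumours, with a log2 difference of 0.00 (95% confidence interval -0.79 to 0.80). Neutrophils had little of it, at 1.60, 1.85 and 6.46 RPKM in LP and 4.90, 5.68 and 2.37 RPKM in tumours, and the groups overlapped (log2 0.60, limma adjusted p = 0.251). Without LP neutrophil library V that difference was 1.23 and passed (limma adjusted p = 0.00364).

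The tumour effect on S100a10 was more negative in macrophages (mean of both subsets) than in monocytes by 3.19 on the log2 scale (log2 -3.19, SE 0.47, limma adjusted p = 1.59e-04) and than in neutrophils (log2 -3.78, SE 0.47, limma adjusted p = 8.12e-06). These differences of effects were added after the values were seen. Between the macrophage subsets the tumour effect on S100a10 differed by 0.21 (95% confidence interval -0.92 to 1.34). S100a10 was higher in MHCIIlow than in MHCIIhi macrophages both in LP (log2 1.65, SE 0.38, limma adjusted p = 0.0103) and in tumours (log2 1.87, SE 0.38, limma adjusted p = 0.0221), where the libraries did not overlap. Either call was lost when single libraries were left out: in LP without MHCIIhi III (limma adjusted p = 0.0524), and in tumours in 5 of 6 such fits, all but that without MHCIIlow I, at log2 differences of 1.69 to 1.97 and limma adjusted p up to 0.0730. The call in tumours was also lost with only the libraries compared in the fit (limma adjusted p = 0.116).

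Anxa2, which encodes annexin A2, and Ahnak, a very large scaffold protein that binds the S100a10 and annexin A2 complex, were also lower in tumour macrophages. Anxa2 stood at 188, 196 and 223 RPKM in LP MHCIIhi and 23.2, 30.1 and 13.2 RPKM in tumour MHCIIhi macrophages (log2 -3.27, SE 0.23, limma adjusted p = 1.35e-08). In MHCIIlow macrophages it stood at 476, 292 and 339 RPKM in LP and 83.1, 100.1 and 69.1 RPKM in tumours (log2 -2.12, SE 0.23, limma adjusted p = 1.23e-06). Anxa2 thus kept the order of S100a10 in macrophages, but in neutrophils it went another way. Neutrophils had 540.5, 613 and 447 RPKM of Anxa2 in LP and 1243, 1181 and 1069 RPKM in tumours, a rise of 1.14 on the log2 scale (limma adjusted p = 8.27e-04), beside levels of S100a10 of at most 6.46 RPKM. Ahnak stood at 58.1 to 63.9 RPKM in LP and 1.75 to 5.15 RPKM in tumour MHCIIhi macrophages (log2 -4.26, limma adjusted p = 6.10e-07), and at 65.8 to 96.0 and 2.42 to 7.31 RPKM in MHCIIlow macrophages (log2 -4.01, limma adjusted p = 9.90e-07). In monocytes neither Anxa2 (log2 0.29, limma adjusted p = 0.512) nor Ahnak (log2 -0.26, 0.794) passed the test. Between neutrophils and monocytes Ahnak was lower by more than S100a10 (log2 -4.49 in LP and -4.41 in tumours, limma adjusted p = 3.20e-08 and 3.31e-08).

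**Figure D2:**
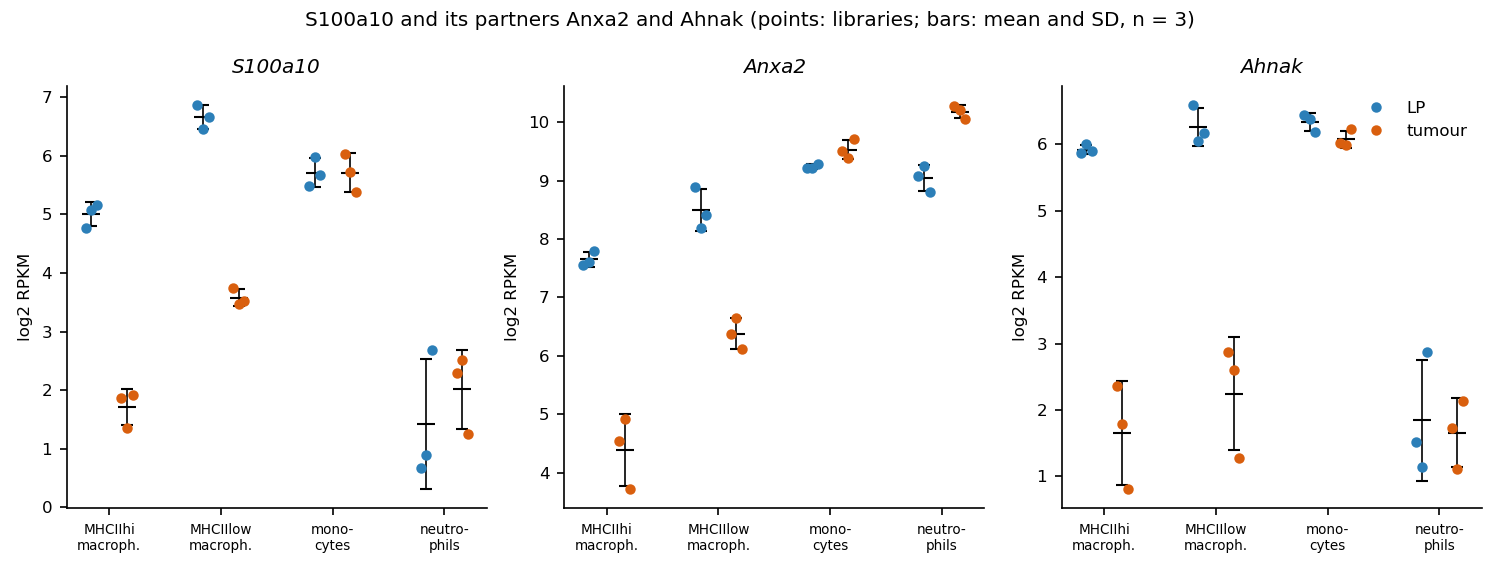
S100a10, Anxa2 and Ahnak (y axes, log2 RPKM) in the 4 populations (x axes), with 1 point per library, blue for LP, orange for tumour, and bars for mean and SD (n = 3). All 3 genes stand lower in tumour than in LP macrophages of both subsets, and in neutrophils Anxa2 stands high while S100a10 and Ahnak stand low.

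S100a6, a ligand of annexins and of the calcyclin-binding protein, was lower in tumour macrophages and high in neutrophils. It stood at 3.73, 6.56 and 5.07 RPKM in LP MHCIIhi (III, IV, V) and 1.53, 0.735 and 0.395 RPKM in tumour MHCIIhi macrophages (I, V, VII). MHCIIlow macrophages had 36.9, 22.6 and 25.0 RPKM in LP (II, III, IV) and 2.47, 0.839 and 2.70 RPKM in tumours. The groups did not overlap in either subset, and S100a6 was 6.53-fold lower in tumour MHCIIhi (log2 -2.71, SE 0.42, limma adjusted p = 1.07e-04) and 15.5-fold lower in tumour MHCIIlow macrophages (log2 -3.95, SE 0.42, limma adjusted p = 1.10e-06). The difference between these effects did not pass (log2 -1.25, SE 0.60, limma adjusted p = 0.391), except with log2(RPKM + 1) (-1.60, limma adjusted p = 0.0292). In monocytes S100a6 stood at 27.6, 36.5 and 33.7 RPKM in LP and 40.5, 39.2 and 28.2 RPKM in tumours, which overlapped (log2 0.13, 95% confidence interval -0.75 to 1.01). Neutrophils were highest, at 121, 114 and 128 RPKM in LP and 182, 217 and 110 RPKM in tumours, and overlapped too (log2 0.44, limma adjusted p = 0.465). The tumour effect was more negative in macrophages than in monocytes (log2 -3.46, SE 0.52, limma adjusted p = 1.87e-04) or neutrophils (log2 -3.77, SE 0.52, limma adjusted p = 2.53e-05). In LP S100a6 was 5.52-fold higher in MHCIIlow than in MHCIIhi macrophages (log2 2.46, SE 0.42, limma adjusted p = 8.40e-04), and in tumours the same difference was 1.22 (limma adjusted p = 0.196).

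S100a4, a myosin-binding member associated with cell motility, stood at 4.07, 4.61 and 3.49 RPKM in LP MHCIIhi and 0.264, 0.131 and 0.836 RPKM in tumour MHCIIhi macrophages. In MHCIIlow macrophages it stood at 32.5, 20.1 and 19.8 RPKM in LP and 0.913, 1.73 and 2.15 RPKM in tumours, again without overlap. The tumour libraries held 3 to 14 reads in MHCIIhi and 14 to 44 in MHCIIlow macrophages. S100a4 was lower in tumour MHCIIhi (log2 -3.72, SE 1.22, limma adjusted p = 0.0363) and MHCIIlow macrophages (log2 -3.97, SE 1.22, limma adjusted p = 0.0219). The call in MHCIIhi macrophages was lost in 5 of the 6 fits that left out 1 library, all but that without tumour library VII (limma adjusted p up to 0.134), and that in MHCIIlow macrophages without LP library II or tumour library I or V (up to 0.0745), with log2 differences of -3.10 or below in all. Under the other alternatives both calls were kept (limma adjusted p down to 0.00111 and 1.62e-06). The SE came from all 8 groups. The SD of S100a4 was 4.18 in tumour neutrophils, 0.20 and 0.41 in LP MHCIIhi and MHCIIlow macrophages, and 1.35 and 0.64 in tumour ones. Monocytes had most S100a4, at 32.0, 45.1 and 38.5 RPKM in LP and 58.6, 46.5 and 38.2 RPKM in tumours (log2 0.30, limma adjusted p = 0.931). Neutrophils had 3.51, 0.776 and 3.43 RPKM in LP and 2.47, 2.11 and 0.0151 RPKM in tumours, where library V had 0 reads. Their log2 difference of -2.30 (limma adjusted p = 0.162) became 0.12 without that library, while without tumour library I or II it was -3.56 or -3.45 (limma adjusted p = 0.0361 and 0.0478), so its direction rests on 1 library.

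The values of monocyte and fibroblast markers moved with S100a4, S100a6 and S100a10 in macrophages. Monocyte markers summed to 59.1 to 66.8 RPKM in LP MHCIIhi and 127 to 453 in LP MHCIIlow macrophages, against 13.2 to 18.2 and 13.4 to 24.7 in tumours, and 5 of 7 and 2 of 7 of them were lower in tumour MHCIIhi and MHCIIlow macrophages (11.5% and 11.8% of all genes tested). Of 4 fibroblast markers tested all 4 were lower in both subsets. In monocytes fibroblast markers summed to 9.50 to 25.2 RPKM in LP and at most 0.178 in tumours, and S100a4, S100a6 and S100a10 did not pass there. Macrophage markers summed to 3805 to 5383 RPKM in LP and 4560 to 7571 in tumour macrophages. The part of other cells' RNA in these members' values was not tested.

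S100a11, which binds annexin A1 and acts in membrane repair, was a gene of neutrophils and monocytes. It stood at 195, 172 and 193 RPKM in LP and 241, 320 and 187 RPKM in tumour neutrophils, and at 41.4, 45.9 and 33.1 RPKM in LP and 44.3, 41.8 and 26.2 RPKM in tumour monocytes. The tissues overlapped in both populations, and neither difference passed the test (log2 0.39 and -0.12, limma adjusted p = 0.416 and 0.890). In MHCIIhi macrophages S100a11 stood at 10.04, 14.6 and 7.01 RPKM in LP and 3.16, 3.24 and 8.51 RPKM in tumours, where library VII reached into the LP range. It was lower in tumour MHCIIhi macrophages (log2 -1.19, SE 0.34, limma adjusted p = 0.0169), a call lost without LP library IV (limma adjusted p = 0.104), tumour library I (0.0905) or tumour library V (0.0860), with only the libraries compared in the fit (0.145) and with voom (0.0563). MHCIIlow macrophages had 12.0, 9.65 and 13.4 RPKM in LP and 7.16, 7.49 and 13.03 RPKM in tumours (log2 -0.38, limma adjusted p = 0.474). The tumour effect in macrophages differed from that in neutrophils by -1.17 (SE 0.42, limma adjusted p = 0.0436), a call that was lost in 13 of the 18 fits with a library left out, with no filter (limma adjusted p = 0.0521), quantile normalization (0.135) or only the libraries compared (0.0696), and with summed reads as library sizes (-0.64, 0.275).

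S100a1, known best as a regulator of calcium handling in muscle, had its highest levels in macrophages and its lowest in neutrophils. It stood highest in LP MHCIIlow macrophages, at 12.8, 10.98 and 11.6 RPKM, followed by tumour MHCIIlow macrophages at 11.8, 8.88 and 9.44 RPKM, which overlapped. MHCIIhi macrophages had 3.44, 5.65 and 6.54 RPKM in LP and 8.79, 7.34 and 11.5 RPKM in tumours, without overlap (log2 0.85, limma adjusted p = 0.194), a difference that passed with log2(RPKM + 1) (0.73, limma adjusted p = 0.0412). Monocytes had 2.53, 2.50 and 3.74 RPKM in LP and 6.93, 5.57 and 3.796 RPKM in tumours, again all higher in tumours and not past the threshold (log2 0.88, limma adjusted p = 0.241). Neutrophils held 3 to 8 reads in LP (0.334 to 0.495 RPKM) and 16, 10 and 2 reads in tumours (1.86, 1.78 and 0.388 RPKM). S100a1 was higher in tumour neutrophils (log2 1.41, SE 0.43, limma adjusted p = 0.0173) although library V lay within the LP range. The call was lost without LP library IV (1.26, limma adjusted p = 0.0587), tumour library I (1.02, 0.0979) or tumour library II (1.05, 0.0949), and with summed reads as library sizes (0.94, 0.0841). It was lost, too, with log2(RPKM + 1) (0.66, limma adjusted p = 0.0567), with only the libraries compared in the fit (0.248) and with voom (0.183).

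S100a13, which takes part in the release of Fgf1 and Il1a without the classical secretory route, did not pass the test in any comparison. Its libraries ranged from 1.03 RPKM in LP MHCIIhi III to 5.55 RPKM in tumour MHCIIhi VII, with 14 to 145 reads, and every pair of neighbouring groups in the order of levels overlapped. The LP MHCIIlow libraries lay above the LP MHCIIhi libraries without overlap (log2 1.08, limma adjusted p = 0.248). The widest tumour effect was -0.40 on the log2 scale in MHCIIlow macrophages (95% confidence interval -1.49 to 0.69).

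**Figure D3:**
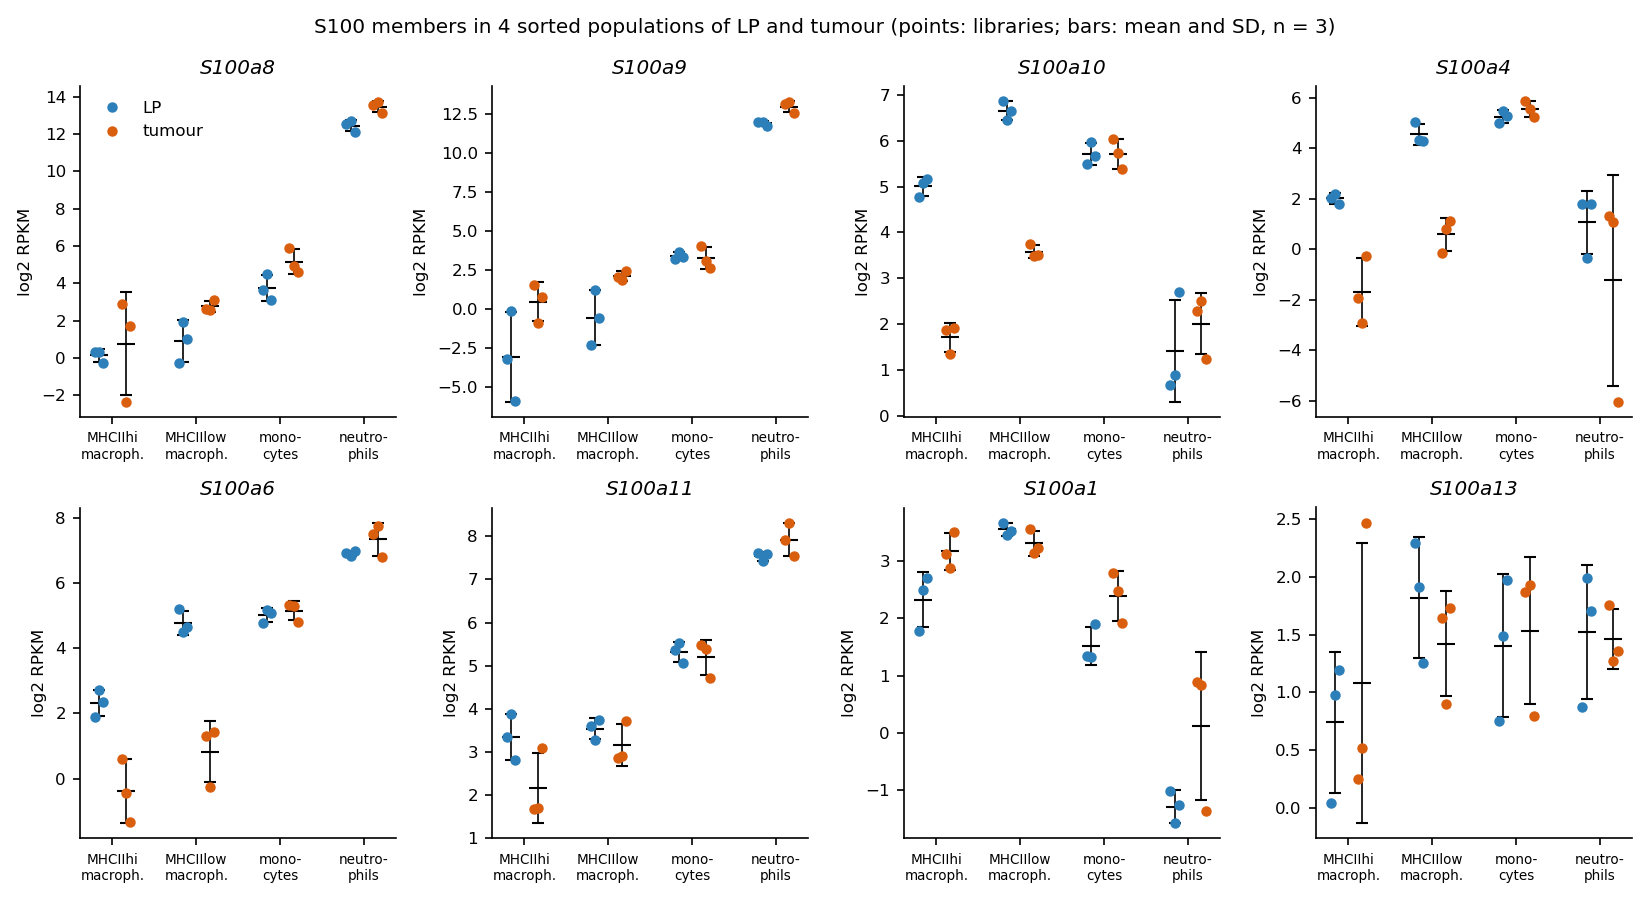
The 8 members (1 panel each, y axes in log2 RPKM) in the 4 populations (x axes), with 1 point per library, blue for LP, orange for tumour, and bars for mean and SD (n = 3). S100a8 and S100a9 stand far higher in neutrophils of both tissues than elsewhere, S100a10 stands lower in tumour than in LP macrophages, and the points of S100a13 overlap between LP and tumour in each population.

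Counted over the family, 5 of 8 members differed between tumour and LP MHCIIhi macrophages, 4 lower (S100a4, S100a6, S100a10, S100a11) and 1 higher (S100a9), beside 19.5% of the 12878 genes tested in either direction, 11.5% lower and 8.01% higher. In MHCIIlow macrophages 3 of 8 were lower (S100a4, S100a6, S100a10) and 0 higher, beside 23.3% in either direction and 11.8% lower. The median log2 difference of the members was -0.42 in MHCIIhi and -0.39 in MHCIIlow macrophages, beside 0.00 and 0.06 over all genes tested. Libraries of the 2 tissues did not overlap for 4 members in MHCIIhi macrophages (background 43%) and for 5 in MHCIIlow macrophages (42.1%). In monocytes 0 of 8 members passed with limma (background 9.29%), with 0 at an unadjusted p under 0.05 and 0 with voom, and 2 (S100a1 and S100a8) were higher without overlap (31.4%). In neutrophils 1 of 8, S100a1, passed (32.2% in either direction), and S100a8 and S100a9 were higher without overlap in deposited RPKM (40.1%). For the difference of the tumour effect between MHCIIlow and MHCIIhi macrophages 0 members passed with limma (1.46%), with 1 at an unadjusted p under 0.05 and 0 with voom. For neutrophils minus monocytes the counts were 0 with limma (9.11%), 0 unadjusted and 0 with voom. For macrophages minus monocytes 2 were lower (background 9.19% in either direction and 5.64% lower), and for macrophages minus neutrophils 3 (26% and 11.5%).

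**Figure D4:**
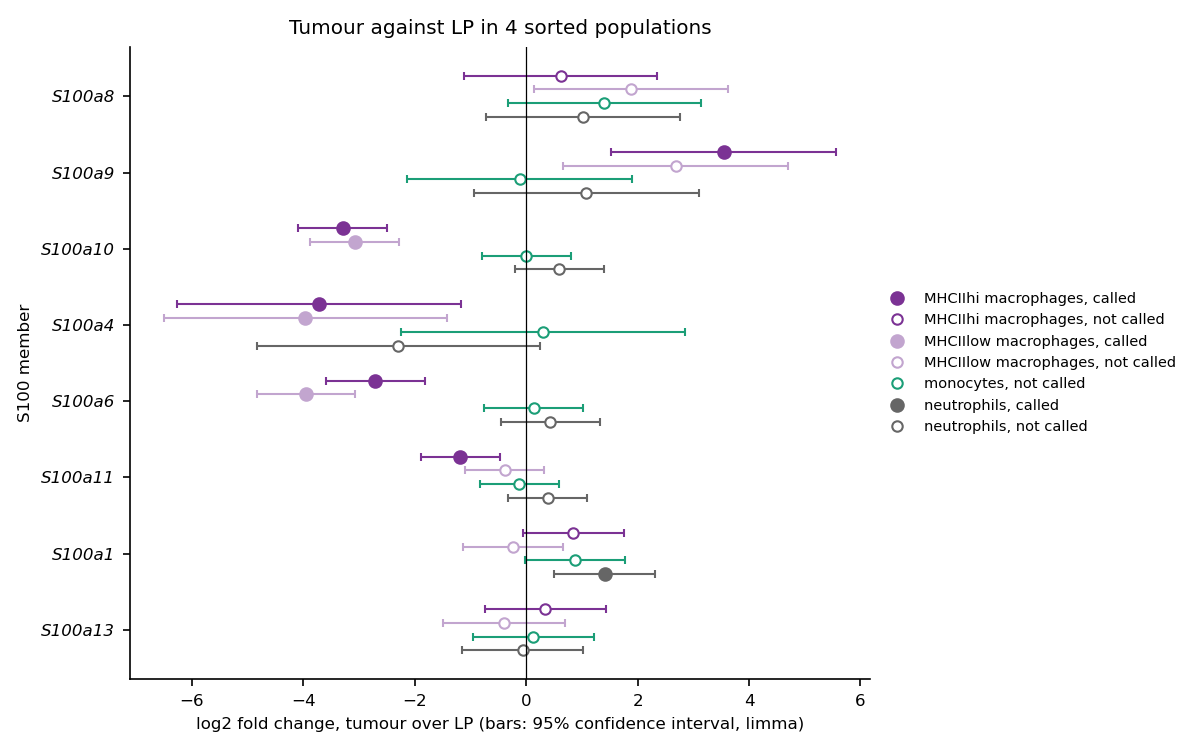
Log2 fold change of tumour over LP (x axis) for the 8 members (y axis) in the 4 populations, as points with bars for the 95% confidence interval of limma, colour for the population, and filled points for adjusted p under the threshold of 0.05. S100a10 and S100a6 stand left of 0 in both macrophage subsets and near 0 in monocytes, while the intervals of S100a4 and S100a9 are wide.

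Cell types separated the members further. In LP 7 of 8 members differed between neutrophils and monocytes (54.5% of all genes), and in tumours 7 of 8 (58.1%). In both tissues S100a6, S100a8, S100a9 and S100a11 were higher and S100a1, S100a4 and S100a10 lower in neutrophils. Beside the calprotectin genes, S100a11 was 4.69-fold higher in LP neutrophils (log2 2.23, limma adjusted p = 1.56e-05) and 6.68-fold higher in tumour ones (log2 2.74, limma adjusted p = 1.005e-06). S100a6 was higher by 1.90 in LP and 2.20 in tumours on the log2 scale (limma adjusted p = 8.11e-04 and 1.67e-04). S100a10 was 19.6-fold lower in LP and 12.98-fold lower in tumour neutrophils (log2 -4.29 and -3.70, limma adjusted p = 1.41e-08 and 8.61e-08). S100a4 was lower by a log2 difference of -4.18 in LP and -6.78 in tumours (limma adjusted p = 0.00677 and 8.39e-05), the latter with a library at 0 reads.

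Macrophages, as the mean of both subsets, differed from monocytes in 5 of 8 members in LP (29.5%) and in 5 of 8 in tumours (38.3%). In LP S100a1 was higher (log2 1.42, limma adjusted p = 0.00690), and S100a6 (-1.47), S100a8 (-3.24), S100a9 (-5.19) and S100a11 (-1.88) were lower. In tumours S100a4 (-6.12), S100a6 (-4.93), S100a8 (-3.39), S100a10 (-3.07) and S100a11 (-2.54) were lower. In LP the subsets lay apart from monocytes in opposite ways for S100a10: all MHCIIlow libraries (87.6 to 117 RPKM) lay above and all MHCIIhi libraries (27.4 to 35.9 RPKM) below the monocytes (44.9 to 62.8 RPKM), and the mean of both subsets differed from them by 0.12 (log2, limma adjusted p = 0.827). For S100a6 the MHCIIlow libraries of LP (22.6 to 36.9 RPKM) overlapped the monocytes (27.6 to 36.5 RPKM), and the MHCIIhi libraries (3.73 to 6.56 RPKM) lay below them. Between the macrophage subsets 2 members were higher in MHCIIlow macrophages of LP (S100a6 and S100a10; background 7.7% in either direction and 2.13% higher) and 1 in those of tumours (S100a10; background 1.13% in either direction and 0.567% higher). S100a4 was not called in LP (log2 2.54, SE 1.22, limma adjusted p = 0.246) or in tumours (log2 2.29, 0.526). Its LP difference passed with only the libraries compared (limma adjusted p = 0.0147), voom (7.27e-04) and log2(RPKM + 1) (4.01e-04). With a library left out it did not pass (limma adjusted p of 0.312 or more). Over the members the median log2 difference of MHCIIlow from MHCIIhi macrophages was 1.44 in LP and 1.44 in tumours, beside -0.03 and 0.00 over all genes.

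Of 12 tested intracellular partners of S100 proteins, 7 were lower and 1 higher in tumour MHCIIhi macrophages (19.5% of all genes tested were called in either direction and 11.5% were lower), and 7 lower and 2 higher in MHCIIlow macrophages (23.3% and 11.8%). In monocytes 1 was lower and 2 higher (9.29% in either direction), and in neutrophils 4 were higher, near the share of all genes called (32.2%). Il1a, the cytokine released with S100a13, was higher in tumours in all 4 populations, by 2.32 in MHCIIhi macrophages, 1.98 in MHCIIlow macrophages, 3.16 in monocytes and 4.12 in neutrophils on the log2 scale (limma adjusted p at most 2.32e-05). Anxa5, which binds phosphatidylserine, was lower in tumour MHCIIhi (log2 -1.22, limma adjusted p = 7.00e-06) and MHCIIlow macrophages (log2 -0.97, limma adjusted p = 7.22e-05). The median log2 difference of the partners was -1.08 and -0.99 in the macrophage subsets and -0.11 and 0.14 in monocytes and neutrophils, beside 0.00, 0.06, 0.00 and -0.12 over all genes tested.

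Of 9 receptors and adaptors for released S100 proteins, 4 were lower in tumour MHCIIhi macrophages (11.5% of all genes tested), and 5 lower and 2 higher in MHCIIlow macrophages (23.3% in either direction). In monocytes 0 passed with limma (9.29% of all genes did; 2 at an unadjusted p under 0.05 and 2 with voom), and in neutrophils 2 were higher and 1 lower, near the share of all genes (32.2%). Their median log2 differences were -0.65, -0.67, -0.09 and 0.46 in MHCIIhi macrophages, MHCIIlow macrophages, monocytes and neutrophils. Tlr4, a receptor of calprotectin, was lower in tumour MHCIIhi (log2 -0.75, limma adjusted p = 0.0196) and MHCIIlow macrophages (log2 -0.67, limma adjusted p = 0.0322), and higher in neutrophils than in monocytes in LP (log2 1.35) and tumours (log2 1.45). Cd36, a scavenger receptor for fatty acids that also binds calprotectin, was lower in tumour MHCIIhi (log2 -2.16, limma adjusted p = 0.0423) and MHCIIlow macrophages (log2 -3.79, limma adjusted p = 6.57e-04). Cd14, which hands lipopolysaccharide to Tlr4, was lower in tumour MHCIIhi macrophages (log2 -0.83, limma adjusted p = 0.0323) and higher in tumour neutrophils (log2 1.28, limma adjusted p = 0.00100). Mcam, an adhesion molecule that binds calprotectin, was higher in neutrophils than in monocytes (log2 4.21 in LP and 6.65 in tumours) and in tumour MHCIIlow macrophages than in LP ones (log2 4.71, limma adjusted p = 0.00747).

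Among 8 regulators of S100a8 and S100a9, 2 were lower in tumour MHCIIhi macrophages (19.5% of all genes tested in either direction), 1 lower and 1 higher in MHCIIlow macrophages (23.3%), and 2 lower in neutrophils (32.2%). These shares were near those of all genes in macrophages and below them in neutrophils. In monocytes 0 passed with limma, beside 9.29% of all genes (1 at an unadjusted p under 0.05 and 0 with voom). Stat3, a factor downstream of interleukin 6 and interleukin 10, was lower in both tumour macrophage subsets (log2 -1.38 and -1.39, limma adjusted p = 2.51e-06 and 1.82e-06). In tumour neutrophils Cebpa (log2 -5.11, limma adjusted p = 0.00116) and Cebpd (log2 -1.48, limma adjusted p = 0.0243), which encode C/EBP factors, were lower. S100a8 and S100a9 stood higher there without overlap in deposited RPKM, and neither passed the test. Irf8, a factor of monocyte and macrophage fate, was lower in neutrophils than in monocytes in LP (log2 -3.31) and tumours (log2 -3.76), opposite to the calprotectin genes.

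Of 6 other tested genes named after the family (S100a2, S100a3, S100a7a, S100a14, S100a16 and S100pbp), 0 differed between tumour and LP in any of the 4 populations with limma, with 1 at an unadjusted p under 0.05 in monocytes, 0 in the other populations, and 0 with voom. Of all genes tested, 19.5% were called in MHCIIhi macrophages, 23.3% in MHCIIlow macrophages, 9.29% in monocytes and 32.2% in neutrophils. S100a2 was higher in LP neutrophils than in LP monocytes (log2 4.50, limma adjusted p = 0.0212), and S100a7a (log2 5.77, limma adjusted p = 0.0103) and S100a3 (log2 4.94, limma adjusted p = 0.0230) in tumour neutrophils than in tumour monocytes. They rest on few reads, at most 59 for S100a2 in LP neutrophils and at most 19 and 14 for S100a7a and S100a3 in tumour neutrophils. S100a5, S100a7l2, S100b, S100g and S100z were not analysed here.

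Across the 24 libraries the log2 levels of S100a8 and S100a9 had a Pearson r of 0.973, those of S100a8 and S100a11 0.928, those of S100a6 and S100a11 0.884, those of S100a4 and S100a10 0.823, and those of S100a1 and S100a8 -0.836. These are descriptions over libraries that share populations, pools and library sizes, and much of each r follows the populations. By the same measure the genes most like each member were Cxcr2, Grina and Myl6 for S100a8 (r up to 0.980), S100a8, Retnlg and Pram1 for S100a9 (0.973), and Irak3, Bst1 and Actg1 for S100a11 (0.973). Emp3, Ednrb and F13a1 were most like S100a10 (0.971), Padi4, Sgms2 and Mbd2 most like S100a6 (0.967), and Cat, Mrps17 and Hadh most like S100a1 (0.963). For S100a4 (Camkk2, Stom and Rarg, 0.856) and S100a13 (Mettl23, Cox6a1 and Chchd2, 0.628) the closest genes were less like the member.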

How the data were processed

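Libraries were made from sorted cells by SMARTSeq v2 with modifications, and both ends of the fragments were read for 51 bases. Per the submitters' processing notes the tools were STAR 2.3, featureCounts 1.5 and edgeR on GRCm38/mm10, and the methods name GENCODE genes. The authors deposited log2 RPKM per gene and library, and the values showed a prior of 0.25 reads and scaled library sizes. Genes with few reads had been left out. Whole reads were recovered for all 17301 genes and used for depth and for voom. The depth per library and its limits are given with the groups.

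The deposited log2 RPKM was compared with limma 3.58.1 in R 4.3.3 (a trend in the variance) with a mean for each of the 8 groups. It covered the 12878 genes whose mean RPKM reached 1 in any group. Benjamini-Hochberg adjustment was made comparison by comparison, and an adjusted p under 0.05 was called. Libraries of a group came from separate pools, so p values measure the spread between pools. The lists were other S100 genes, intracellular partners, receptors, regulators of S100a8 and S100a9, and markers of neutrophils, monocytes, macrophages, dendritic cells, eosinophils, epithelium, fibroblasts and lymphocytes. Of each list but the markers, at most the 4 called genes with the largest differences between tumour and LP or neutrophils and monocytes were named, plus Anxa2, Ahnak and Tlr4 as direct partners. Marker genes were named where they bear on a member. The members and lists were chosen with earlier results of these data known. Python 3.11.15, numpy 2.4.6, pandas 2.3.3, scipy 1.17.1 and matplotlib 3.10.9 served for the rest.

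Alternatives were log2(RPKM + 1) and log2(RPKM + 0.1), no filter, a filter at a mean RPKM of 5, quantile normalization, libraries centred on their median, only the libraries compared, the pool number as a block within tissue, voom on the recovered reads, and leaving out each library in turn. Summed reads as library sizes, and the comparisons of macrophages with monocytes or neutrophils in their tumour effect, were added once the data had been seen. Pool numbers are donor numbers on the labels, so within a tissue they pair libraries. Over 29 such pairs the deviations from the group means had r from -0.0661 to 0.255, with a median of 0.0169. The model was tested on simulated data, where groups of very unequal read numbers gave more false calls than the threshold allows, so members with few reads in a group are less certain. All deposited columns were used.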

Additional observations from a re-analysis of the deposited data

Results flagged for a closer look

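The difference between tumour and LP itself differed between cell types for S100a6, S100a10 and S100a11, tested as a difference of effects in limma, with comparisons added after the values were seen. Against monocytes the tumour effect in macrophages (mean of both subsets) was more negative by a log2 difference of -3.46 for S100a6 (limma adjusted p = 1.87e-04) and -3.19 for S100a10 (limma adjusted p = 1.59e-04). Against neutrophils it was -3.77 for S100a6 (limma adjusted p = 2.53e-05), -3.78 for S100a10 (limma adjusted p = 8.12e-06) and -1.17 for S100a11 (limma adjusted p = 0.0436). The value of S100a11 no longer passed in 13 of 18 fits with a library left out, with no filter, with quantile normalization, with only the libraries compared and with summed reads as library sizes. S100a4 was not called against monocytes (log2 -4.14, SE 1.49, limma adjusted p = 0.0922) or neutrophils (log2 -1.55, 0.478). Against monocytes it passed with log2(RPKM + 1) (limma adjusted p = 2.95e-04), log2(RPKM + 0.1) (0.0118), quantile normalization (0.0104), only the libraries compared (5.35e-04) and voom (6.62e-05). S100a10 was lower in 6 of 6 tumour macrophage libraries than in any LP library of the same subset, and so were S100a6 and S100a4. Of all genes tested, 43% did not overlap between the tissues in MHCIIhi and 42.1% in MHCIIlow macrophages. Groups of 3 libraries are too small for a test of single outlying samples.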

How the results depend on the processing

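Of the 41 calls of members over all comparisons, 33 kept their direction and passed under every alternative. Among them were S100a10 and S100a6 in tumour against LP macrophages, with log2 differences over all alternatives of -3.65 to -2.95 and -3.21 to -1.71 in MHCIIhi and of -3.50 to -2.98 and -4.48 to -3.31 in MHCIIlow macrophages. The number of members called between tumour and LP MHCIIhi macrophages, 5, was 3 with only the libraries compared and 3 with voom, and 2 to 5 with a library left out. In MHCIIlow macrophages it was 5 with log2(RPKM + 1) in place of 3, and 2 to 4 with a library left out. In neutrophils it was 2 with voom and 0 with summed reads in place of 1, and 0 to 2 with a library left out. Between the macrophage subsets it was 4 with log2(RPKM + 1) and 4 with voom in place of 2 in LP, and 1 to 3 with a library left out, while in tumours it was 0 with only the libraries compared in place of 1, and 0 to 1 with a library left out. For the tumour effect between the subsets it was 1 with log2(RPKM + 1) in place of 0. For the effect in macrophages minus monocytes it was 4 with log2(RPKM + 1) and 4 with voom in place of 2, and 2 to 3 with a library left out, and minus neutrophils 2 to 5 in place of 3. The direction turned for S100a8 in tumour neutrophils under quantile normalization (-0.12), for S100a9 in the effect between macrophage subsets with log2(RPKM + 1) (0.54) and log2(RPKM + 0.1) (0.055), and for S100a1 in the effect of neutrophils minus monocytes with log2(RPKM + 1) (-0.042). With a library left out, S100a8 ranged from -0.46 to 2.17 in tumour against LP MHCIIhi macrophages and from -0.29 to 2.34 in the effect between subsets, S100a9 in that effect from -2.32 to 0.54, and S100a4 in neutrophils from -3.56 to 0.12. The cause of these changes was not tested. With the replicate block, the pool number within tissue, S100a9 in tumour against LP MHCIIlow macrophages stood at 2.73 and passed (limma adjusted p = 0.0447), and the block changed no other call of a member. The depth limits what can be read from members with few reads, S100a4, S100a8 and S100a9 in macrophages and S100a1 in neutrophils.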

Other observations

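S100a14 and S100a16, named after their values were seen, are S100 genes known from epithelia, and they were uneven among the LP monocyte libraries. S100a14 had 835, 0 and 444 reads and S100a16 had 1459, 24 and 1226 reads in libraries III, IV and V. The summed epithelial markers of these libraries were 213, 23.96 and 63.6 RPKM, lowest in the library with fewest reads of both genes. In tumour monocytes I, II and V the reads were 27, 196 and 110 for S100a14 and 66, 232 and 129 for S100a16. Their summed epithelial markers were 105, 316 and 216 RPKM, so tumour library V was close to LP library III in this sum with fewer reads of both genes. The part of epithelial RNA in these values was not tested.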
